A study of Homo sapiens with 12 samples.

Results

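The loci of CXCR4 and of 5 regulators of G protein signalling, RGS1, RGS13, RGS2, RGS18 and RGS16, were examined for H3K27ac, the acetylation of histone H3 found at promoters and enhancers in use. All peaks within 100 kb of the RefSeq span of each gene were taken. These 6 of 19974 protein-coding genes had 329 distinct peaks of the 573987 in 12 peak lists. The genes were chosen by name with earlier results of these libraries in view. One such result was a higher peak coverage at CXCR4 with dexamethasone, and which other values were in view when the RGS genes were listed is not recorded. The dexamethasone comparisons of the 6 genes are therefore a description: no p-value is given for a gene or region in them, the numbers of calls stand only beside their share over all windows or regions, and nothing is read from these numbers. The knockout comparisons and the difference between the drug responses of the genotypes were tested. Whether knockout values were in view when the RGS genes were listed is not recorded either. The knockout p-values of these genes, that of RGS18 among them, hold only with that limit.

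The cells were RPMI 8226, an established human multiple myeloma line, profiled by CUT&RUN, in which a nuclease tethered to an antibody releases the DNA that carries the mark. There were 4 groups of 3 libraries each: cells in which CEBPB had been knocked out, so that the transcription factor C/EBPβ should be missing, treated with 10 µM dexamethasone for 2 h; knockout cells with DMSO; scramble control cells with the same dexamethasone treatment; and scramble control cells with DMSO. Dexamethasone is a synthetic glucocorticoid used against myeloma, and the study's title concerns enhancer responses to it when C/EBPβ is depleted. The labels say neither if the knockout line is clonal nor if replicate libraries stem from different cultures, so p-values measure the spread between libraries, which may be technical.

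CXCR4 is the receptor of the chemokine CXCL12 and holds plasma cells and myeloma cells in the bone marrow. It signals through inhibitory G proteins. RGS proteins speed up the hydrolysis of GTP on the G protein alpha subunit and so shorten the signal of such receptors, and the 5 listed here belong to the small R4 family.

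Each library had 41164 to 56421 peaks on the autosomes and X, covering 48.0 to 59.7 Mb in the 6 dexamethasone and 53.1 to 66.4 Mb in the 6 DMSO libraries. Read counts are not part of peak lists, so the depth is unknown and no counting interval can be given. In these bulk libraries, fewer cells with the mark and less of the mark per cell cannot be told apart. Plasma cell genes carried the mark: of 7 plasma cell and myeloma markers with a listed start site, 6 had a peak over it in all 12 libraries, among them IRF4, PRDM1 and XBP1, while 0 of 3 T cell markers had one in any library and 0 of 3 myeloid markers in all 12, though each of these had one in some library. Of 3 mature B cell markers 2, CR2 and FCER2, had one in all 12. CEBPB itself had a peak over its start in all 12 libraries, which does not check the knockout: an edit of the gene need not remove the mark at its start.

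Of the 6 genes, 3 had a peak over the start in all 12 libraries, namely CXCR4, RGS2 and RGS16, where 54.8% of 15812 protein-coding genes with a listed start site had one. RGS1 had one in 5 libraries and RGS18 in 3. RGS13 had 0 of 12. Per length, peaks covered 4.12% ± 1.21 of the RGS1 window (SD over 12 libraries), 3.98% ± 1.31 of the CXCR4 window, 3.66% ± 0.615 of the RGS16 window, 3.14% ± 0.870 of the RGS13 window, 2.00% ± 0.919 of the RGS2 window and 0.671% ± 0.857 of the RGS18 window. From RGS1 to RGS13 each mean lay within 1 SD of the next, and the lower RGS2 and RGS18 still overlapped their neighbours in range. The median over all protein-coding genes was 3.12%.

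CXCR4 (hg38 chr2:136114349-136118149, minus strand) had more of its surroundings covered by H3K27ac peaks with dexamethasone than with DMSO, in both genotypes. In knockout cells the covered length within 100 kb was 9.98, 12.84 and 9.72 kb with dexamethasone, against 4.53, 6.26 and 6.46 kb with DMSO. In scramble cells it was 11.7, 8.87 and 9.42 kb with dexamethasone, against 5.52, 6.52 and 5.50 kb with DMSO. The lowest of the 6 dexamethasone libraries lay above the highest of the 6 DMSO libraries, a separation that 0.111% of the 18928 tested gene windows had in the same direction. The ratio of the mean lengths was 1.89 in knockout cells and 1.71 in scramble cells, although the dexamethasone libraries had the lower range of total covered length. The number of peaks was 6 to 8 with dexamethasone and 3 to 4 with DMSO.

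**Figure D1:**
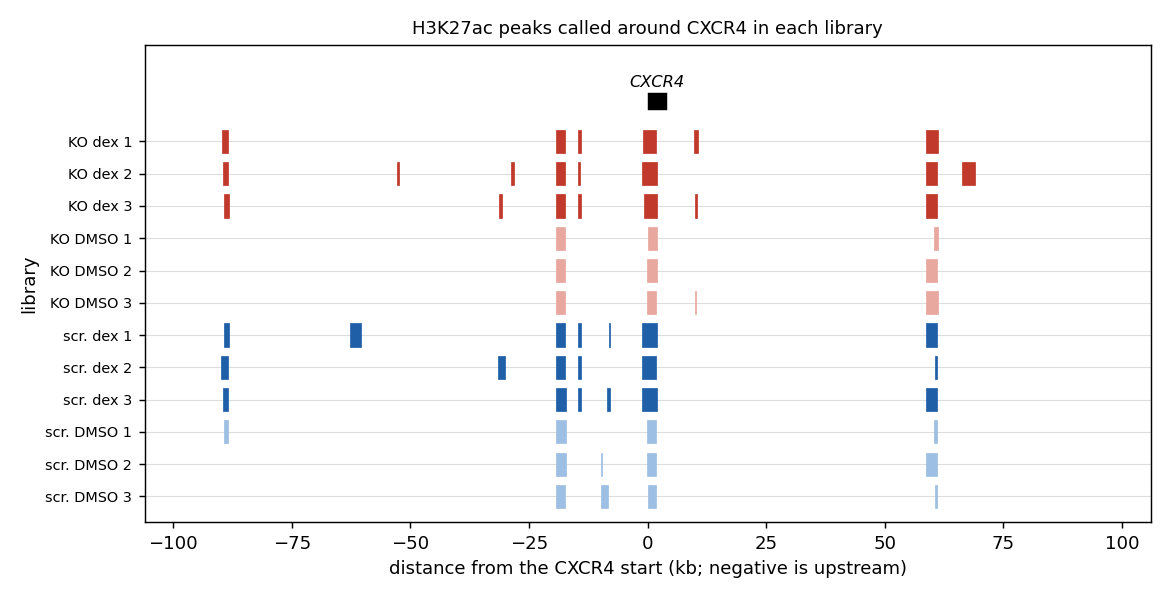
H3K27ac peaks within 100 kb of CXCR4, 1 row per library (KO, CEBPB knockout; scr., scramble; dex, dexamethasone), with the distance from the start in kb on the horizontal axis and upstream to the left. Filled boxes are called peaks, to scale, and the black box is the gene. The 6 dexamethasone rows hold 6 to 8 peaks and the 6 DMSO rows 3 to 4, with peaks 14.1 kb and 88.3 kb upstream in all 6 dexamethasone rows.

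On the scale of log2(covered base pairs + 500), the CXCR4 difference between dexamethasone and DMSO averaged over the genotypes was 0.92 ± 0.12 (SE), and it was 0.96 ± 0.17 in knockout and 0.87 ± 0.17 in scramble cells. All 18928 windows were put in 1 limma fit with Benjamini-Hochberg adjustment, and those with an adjusted p under 0.05 are termed called. In the averaged contrast 0.19% of all windows were called, CXCR4 among them, as 1 of the 6 genes, which restates the value in view at its choice. In knockout cells alone 0 of 6 were called against 0.0792% of windows, and in scramble cells alone 0 of 6 against 0.0687%. Unadjusted, 2 of 6 had a p under 0.05 in each, beside 1371 and 1597 of the 18928 windows. Nothing is read from this count, since the genes were chosen with results in view. With windows of 25 kb or with peaks of −log10 q of at least 2 alone, the averaged difference of CXCR4 was log2 0.55 and was not called.

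The drug response did not differ detectably between the genotypes. The response of CXCR4 in knockout cells minus that in scramble cells was log2 0.09 ± 0.24 (SE, limma adjusted p = 0.99), and its sign turned in 4 of 23 alternative settings. Of the 6 genes, 0 were called for this difference in limma, against 0.0106% of all windows called. Unadjusted, 0 of 6 had a p under 0.05, beside 1155 of the 18928 windows. CXCR4 coverage averaged 10.8 ± 1.73 kb in knockout and 9.98 ± 1.48 kb in scramble cells with dexamethasone, and it averaged 5.75 ± 1.06 kb in knockout and 5.84 ± 0.588 kb in scramble cells with DMSO (SD, n = 3 each). The averaged knockout contrast had a limma adjusted p of 0.91.

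The promoter of CXCR4 at its most upstream start (GRCh38.p14, chr2:136118100-136118399, minus strand, from RefSeq) is shown because the dexamethasone peak reached beyond it; capitals mark matches to the motifs searched, the GC box GGGCGG and the TATA box TATAAA on either strand.
CXCR4: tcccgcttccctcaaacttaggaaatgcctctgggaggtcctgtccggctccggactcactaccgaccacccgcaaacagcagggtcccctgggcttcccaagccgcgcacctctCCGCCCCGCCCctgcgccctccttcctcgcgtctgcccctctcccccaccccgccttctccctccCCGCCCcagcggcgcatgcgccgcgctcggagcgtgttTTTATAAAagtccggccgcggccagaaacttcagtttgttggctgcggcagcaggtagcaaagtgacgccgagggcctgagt
It is rich in G and C (66.7%, with 27 CpG dinucleotides, against a median of 14 over 35116 RefSeq promoters of 300 bases) and holds 3 GC box matches, 2 of them overlapping, and overlapping TATA box matches in both orientations. Some match to GGGCGG was present in 45.0% of all promoters and to TATAAA in 11.5%. ACANNNTGT, the core of the glucocorticoid receptor element (in 5.37% of promoters), and its hexamer AGAACA (14.8%) had no match in these 300 bases. No match says only that these letters are not in this window.

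Over the start of CXCR4 a single region of 3160 bp was covered in every library, and it was wider with dexamethasone. It was covered over 2822, 3026 and 2808 bp in knockout cells with dexamethasone, against 1912, 1963 and 1879 bp in knockout cells with DMSO. In scramble cells it was covered over 3085, 3062 and 3085 bp with dexamethasone, against 2012, 1925 and 1853 bp with DMSO. The extra length lay upstream: the peak ended 868 to 1236 bp upstream of the start in the 6 dexamethasone libraries, and between 28 bp inside and 164 bp upstream of it in the 6 DMSO libraries. Its other edge, inside the gene, was 1781 to 1939 bp from the start with dexamethasone and 1784 to 1939 bp with DMSO. The wider peak was not the more enriched. By the authors' fold enrichment it stood at 3.33 to 4.01 with dexamethasone and 4.53 to 5.21 with DMSO. With dexamethasone the peak thus took in the whole promoter sequence printed above, and with DMSO it ended within it.

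Upstream of the gene, 2 regions were present in all 6 dexamethasone libraries and in 0 and 1 of the 6 DMSO libraries. A region 14.1 kb upstream (609 bp, hg38 chr2:136132262-136132870, in no annotated gene) was covered over 547, 454 and 531 bp in knockout cells and 609, 565 and 566 bp in scramble cells with dexamethasone, and it is listed at 0 in the 6 DMSO libraries. The authors' fold enrichment of these peaks was 1.84 to 2.26 and their −log10 q 4.92 to 12.3. Of 59550 tested regions, 0.0655% were present in 6 of 6 dexamethasone and 0 of 6 DMSO libraries. A region 88.3 kb upstream (1386 bp, chr2:136206475-136207860, also in no annotated gene) was covered over 1350, 1033 and 935 bp in knockout cells and 948, 1273 and 912 bp in scramble cells with dexamethasone. It is listed at 0 in 5 DMSO libraries and was covered over 783 bp in scramble DMSO library 1, the library with the most covered length. These peaks were weak: their −log10 q was 1.52 to 3.56 with dexamethasone and 0.770 in that DMSO library. Absence from a list can thus mean a peak just under the calling limit. All 3 regions, together with 1 near RGS1 described below, did not overlap between the 6 dexamethasone and the 6 DMSO libraries, as 0.218% of all regions did in this direction.

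**Figure D2:**
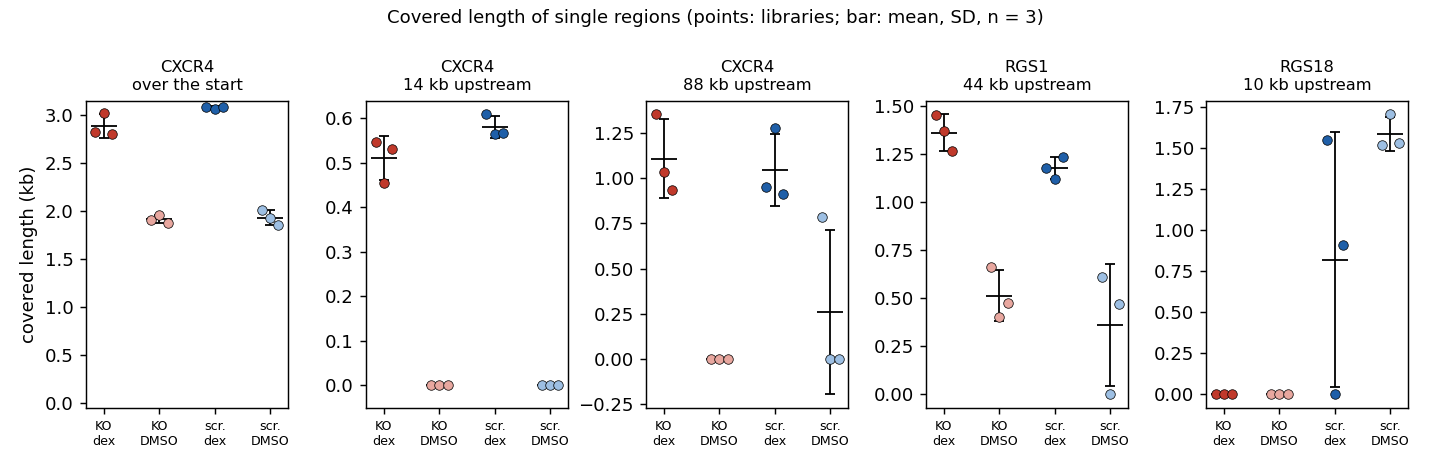
Covered length in kb of the 5 regions near these genes that were called in any contrast, by group from left to right (KO, CEBPB knockout; scr., scramble; dex, dexamethasone). Points are libraries and bars give the mean and SD of 3. The 3 CXCR4 regions and the RGS1 region are higher in all 6 dexamethasone libraries than in any DMSO library, and the RGS18 region is at 0 in all 6 knockout libraries.

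A further region 17.3 kb upstream of CXCR4 (2029 bp, chr2:136135454-136137482) did not follow the drug in length. It was covered over 1876 to 1974 bp with dexamethasone and 1888 to 2029 bp with DMSO, in all 12 libraries, as 41.5% of all regions were. Its place within each list did differ. By the authors' −log10 q, which was compared only within a list, it stood above the peak at the start in 6 of 6 dexamethasone libraries, with 39.2 to 49.8 at the upstream region against 18.8 to 25.8 at the start. In the 6 DMSO libraries it stood below in 6 of 6, with 9.62 to 23.9 upstream against 27.7 to 43.7 at the start. By the authors' fold enrichment the upstream peak stood above in 1 of the 6 dexamethasone and 0 of the 6 DMSO libraries, so the order rests on q. The fold enrichment of the upstream peak itself was 3.245 to 3.492 with dexamethasone and 3.382 to 3.879 with DMSO. The start peak was longer with dexamethasone, and the part of its length in this order was not tested.

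**Figure D3:**
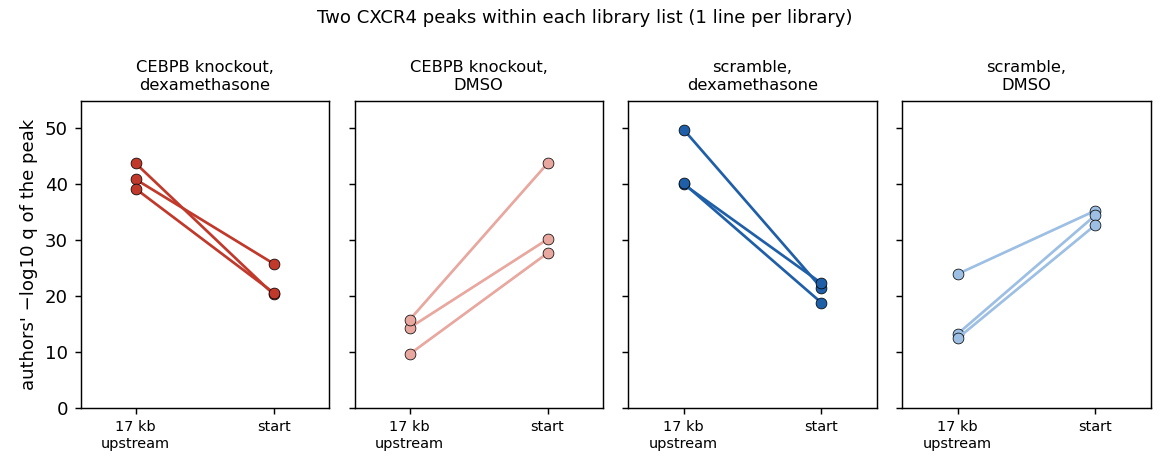
The authors' −log10 q of the peak 17.3 kb upstream of CXCR4 and of the peak over its start, joined by 1 line per library, in 4 panels by group. The upstream peak is the higher in all 6 dexamethasone libraries (39.2 to 49.8 against 18.8 to 25.8) and the lower in all 6 DMSO libraries (9.62 to 23.9 against 27.7 to 43.7); only the order within a line is compared.

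The mean covered length of the CXCR4 window was 4618 bp greater with dexamethasone. Of this, 1057 bp lay over the start, 945 bp in the region 88.3 kb upstream and 545 bp in the region 14.1 kb upstream. A region 58.7 kb downstream of the start, covered in all 12 libraries over 345 to 2405 bp, gave 552 bp, and peaks outside the regions shared between libraries gave 1184 bp. The last share was uneven between libraries, at 1384 ± 1528 bp with dexamethasone and 199.8 ± 452 bp with DMSO (SD, n = 6 each).

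Near the 6 genes lay 42 distinct regions of the 71123 in the genome, 10 of them near more than 1 gene, and 35 were covered in at least 3 libraries and tested. In the averaged drug contrast 4 of the 35 were called, the 3 CXCR4 regions above and 1 near RGS1, where 0.568% of all regions were. In knockout cells alone 3 of 35 were called, all near CXCR4, against 0.573%, and in scramble cells alone 2 of 35, the start and the region 14.1 kb upstream of CXCR4, against 0.752%. The CXCR4 regions lie in a window chosen for such a difference, and the region at 14.1 kb passed the filter of 3 libraries through the dexamethasone libraries alone, so nothing is read from these counts. In the averaged contrast the call 88.3 kb upstream of CXCR4 was lost in 5 of 12 fits with 1 library left out and that near RGS1 in 8 of 12. In knockout cells alone the calls over the start, at 14.1 kb and at 88.3 kb were lost in 8, 6 and 10 of 12 such fits. On the log2 scale the averaged differences were 0.63 ± 0.07 over the CXCR4 start, 1.10 ± 0.11 at 14.1 kb and 1.495 ± 0.221 at 88.3 kb upstream (SE); the 2 upstream values compare with libraries at 0, so their size depends on the offset of 500 bp. For the difference of drug responses between genotypes, 0 of 35 were called in limma, against 0.168% of all regions called. Unadjusted, 1 of 35 had a p under 0.05, a count that is not read, since that over all regions is not given.

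RGS1 (chr1:192575773-192580024, plus strand), which restrains chemokine receptor signalling in activated lymphocytes, had somewhat more coverage with dexamethasone, with overlap between the groups. Within 100 kb, 9.38, 12.67 and 11.86 kb were covered in knockout cells with dexamethasone, against 8.94, 7.62 and 6.14 kb with DMSO. In scramble cells 10.9, 7.83 and 7.63 kb were covered with dexamethasone, against 8.08, 4.75 and 5.26 kb with DMSO. In knockout cells every dexamethasone library was higher than every DMSO library, as at 2.82% of all windows, and in scramble cells DMSO library 1 was higher than dexamethasone libraries 2 and 3. The averaged log2 difference was 0.67 ± 0.13 (SE), 0.66 ± 0.18 in knockout and 0.69 ± 0.18 in scramble cells.

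The promoter of RGS1 (GRCh38.p14, chr1:192575523-192575822, plus strand, from RefSeq) is shown because peaks over it were found in dexamethasone libraries alone; capitals mark a TATA box match and 1 match to AGAACA, on the opposite strand, 193 bases upstream of the start.
RGS1: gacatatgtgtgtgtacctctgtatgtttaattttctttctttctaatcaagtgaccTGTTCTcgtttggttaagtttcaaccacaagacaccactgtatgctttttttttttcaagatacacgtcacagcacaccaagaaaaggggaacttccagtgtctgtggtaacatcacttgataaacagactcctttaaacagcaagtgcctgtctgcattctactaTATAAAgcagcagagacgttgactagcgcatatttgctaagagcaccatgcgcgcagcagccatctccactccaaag
A short region over this start was covered over 335, 279 and 464 bp in knockout cells and 321, 0 and 404 bp in scramble cells with dexamethasone, and is listed at 0 in the 6 DMSO libraries. It was thus present in 5 dexamethasone and 0 DMSO libraries, and 0.129% of all regions were present in at least 5 and in 0. The authors' −log10 q of these peaks was 1.67 to 3.48. Among the other promoters of the 6 genes, AGAACA was found in that of RGS13, 9 bases upstream of the start.

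The RGS1 region called in the averaged drug contrast lay 44.3 kb upstream (1462 bp, chr1:192530031-192531492), within the span of LOC105371664, a long non-coding RNA gene that overlaps RGS1. It was covered over 1454, 1370 and 1266 bp in knockout cells with dexamethasone, against 662, 403 and 474 bp with DMSO. In scramble cells it was covered over 1179, 1120 and 1237 bp with dexamethasone, against 609, 0 and 471 bp with DMSO. No DMSO library reached the lowest dexamethasone library. The averaged log2 difference was 1.05 ± 0.17 (SE).

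The most covered region around RGS1, 29.3 kb upstream, spanned 1818 to 1888 bp with dexamethasone and 1705 to 1841 bp with DMSO. A region 51.2 kb upstream was covered in 5 dexamethasone libraries over 437 to 1745 bp and in 1 DMSO library over 358 bp, and a region 32.9 kb downstream of the start over 384 to 1029 bp in 6 dexamethasone and 246 to 591 bp in 5 DMSO libraries. The groups overlapped at both. A region 35.7 kb upstream was covered in all 12 libraries, over 1110 to 1525 bp with dexamethasone and 1061 to 1561 bp with DMSO. Knockout against scramble gave RGS1 a log2 difference of 0.28 ± 0.13 (SE, limma adjusted p = 0.14), which did not pass.

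RGS13 (chr1:192636147-192660311, plus strand), an RGS gene of germinal centre B cells, had no peak over its start in any library and shared 10 of its 11 regions with the windows of RGS1 or RGS2. Its covered length was 7.28, 8.93 and 6.93 kb in knockout cells with dexamethasone, against 9.14, 4.94 and 7.09 kb with DMSO. In scramble cells it was 11.1, 4.89 and 6.46 kb with dexamethasone, against 7.38, 4.61 and 5.77 kb with DMSO. The groups overlapped in both genotypes, and the averaged log2 difference of 0.33 ± 0.15 (SE) takes in the regions shared with RGS1. Its own region, 52.2 kb downstream of the start, was covered over 450 to 492 bp in 9 libraries.

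**Figure D4:**
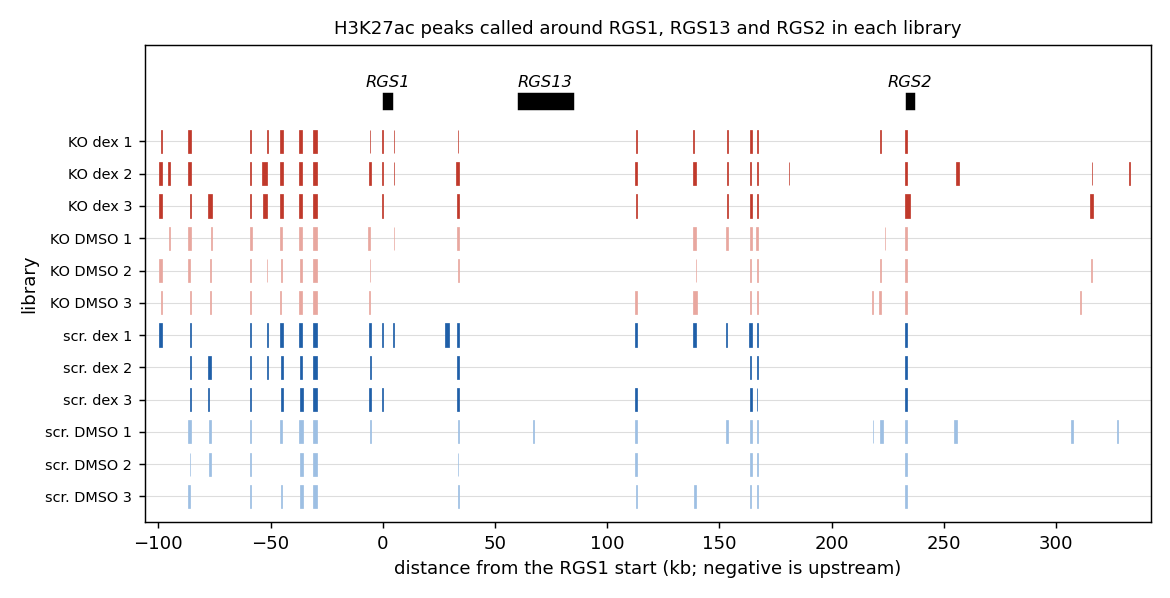
H3K27ac peaks around RGS1, RGS13 and RGS2, 1 row per library (KO, CEBPB knockout; scr., scramble; dex, dexamethasone), by distance from the RGS1 start in kb. Black boxes are genes and coloured boxes peaks, to scale. Peaks lie over the RGS2 start in all 12 rows, over the RGS1 start in 5 dexamethasone rows and 0 DMSO rows, and over the RGS13 start in 0 rows.

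RGS2 (chr1:192809039-192812275, plus strand), which acts mainly on G proteins of the Gq class, carried a peak over its start in all 12 libraries. The promoter (GRCh38.p14, chr1:192808789-192809088, plus strand, from RefSeq) is printed as a contrast to RGS1 on the same chromosome, with a CCAAT box (CCAAT, in 34.6% of promoters) and a GC box in capitals.
RGS2: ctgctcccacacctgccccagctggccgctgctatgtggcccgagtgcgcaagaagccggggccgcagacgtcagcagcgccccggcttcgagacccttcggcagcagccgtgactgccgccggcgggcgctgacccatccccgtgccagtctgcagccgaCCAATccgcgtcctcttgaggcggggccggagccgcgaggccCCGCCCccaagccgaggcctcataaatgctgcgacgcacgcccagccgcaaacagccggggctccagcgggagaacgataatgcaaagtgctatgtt
It contains 69.7% G and C and 32 CpG dinucleotides, where the RGS1 promoter contains 41.7% and 6. The region over the start was covered over 786 to 1082 bp with dexamethasone and 836 to 1062 bp with DMSO, and over 929 to 1082 bp in knockout and 786 to 1062 bp in scramble cells. The window as a whole held 3.44, 6.31 and 4.71 kb in knockout cells with dexamethasone, against 5.38, 2.99 and 5.08 kb with DMSO. In scramble cells it held 4.27, 1.88 and 1.97 kb with dexamethasone, against 7.81, 2.06 and 2.91 kb with DMSO. Groups overlapped for both factors, and the averaged knockout difference of log2 0.43 ± 0.23 (SE) did not pass in limma (adjusted p = 0.19). Without scramble DMSO library 1, which held the highest value, that limma difference was 0.64 and passed (adjusted p = 0.024; 0.024 to 0.53 over 23 alternatives).

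RGS16 (chr1:182598623-182604389, minus strand), an RGS gene that activation induces in lymphocytes, had the smallest spread over the 12 libraries of the 6 genes. The region over its start was the longest near any of these genes. In knockout cells it was covered over 2971, 2952 and 2971 bp with dexamethasone, against 3042, 3145 and 3145 bp with DMSO. In scramble cells it was covered over 3167, 3137 and 3139 bp with dexamethasone, against 3133, 3137 and 3077 bp with DMSO. The RGS16 window held 6.24, 8.34 and 6.38 kb in knockout cells with dexamethasone, against 9.17, 7.87 and 8.65 kb with DMSO. In scramble cells it held 8.89, 7.82 and 4.92 kb with dexamethasone, against 7.74, 7.76 and 6.51 kb with DMSO. In the window the drug groups overlapped in both genotypes. Under DMSO all 3 knockout libraries lay above all 3 scramble libraries, as at 14.5% of all windows, a difference of log2 0.17 ± 0.18 that did not pass (limma adjusted p = 0.61). The neighbouring RGSL1 and RGS8, another R4 gene, reach into its window, and a region in the span of RGS8 was covered in all 12 libraries, over 421 to 1744 bp.

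**Figure D5:**
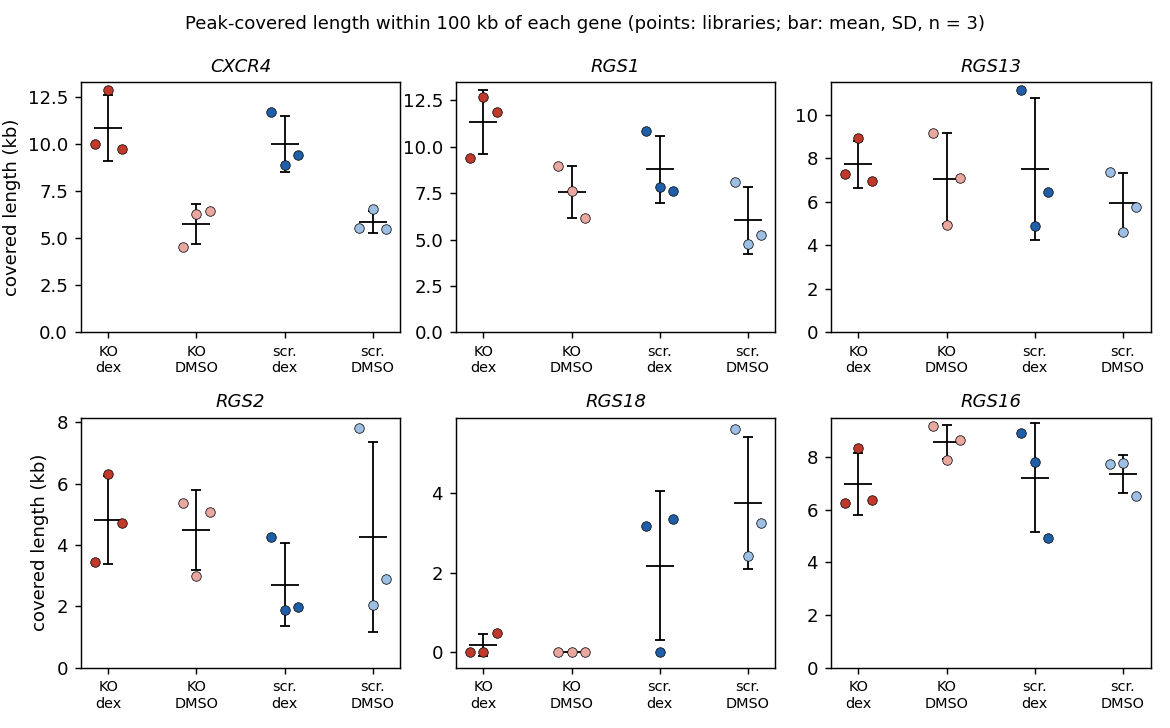
Peak-covered length within 100 kb of each of the 6 genes in kb, by group from left to right (KO, CEBPB knockout; scr., scramble; dex, dexamethasone). Points are libraries and bars the mean and SD of 3. CXCR4 is at 8.87 to 12.84 kb in the 6 dexamethasone and 4.53 to 6.52 kb in the 6 DMSO libraries, and RGS18 is at 0 in 5 of 6 knockout libraries.

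RGS18 (chr1:192158462-192185815, plus strand), known best from platelets and their precursors, was the one gene of the 6 that passed the test between genotypes. Its window held 0, 0 and 0.484 kb in knockout cells and 3.18, 0 and 3.35 kb in scramble cells with dexamethasone. With DMSO it is listed at 0 in all 3 knockout libraries and held 5.63, 2.41 and 3.26 kb in scramble cells. Coverage was thus found in 1 of 6 knockout and 5 of 6 scramble libraries, and scramble dexamethasone library 2, the library with the least covered length, was at 0.

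The RGS18 window passed the filter of 3 covered libraries through the scramble libraries, where it is high; with no filter the limma calls below were the same (adjusted p = 0.0020 averaged and 0.0069 under DMSO). In limma RGS18 was lower in the knockout averaged over treatments (log2 −2.29 ± 0.43, adjusted p = 0.0016) and under DMSO (log2 −2.98 ± 0.62, adjusted p = 0.0057), and it did not pass under dexamethasone (log2 −1.60 ± 0.62, adjusted p = 0.10). These sizes depend on the offset and are no bound, since libraries are at 0. RGS18 was the only called gene of the 6 in both contrasts: 1 of 6 against 24.8% of all windows in the averaged contrast and 1 of 6 against 12.9% under DMSO. Under dexamethasone 0 of 6 passed, against 13.6% of all windows. Unadjusted, 1 of 6 had a p under 0.05 there, as 5129 of the 18928 windows had. A count of 1 of 6 is near the background, and is no result about the 6 genes as a group. Without scramble dexamethasone library 2 the limma contrast under dexamethasone passed as well (log2 −2.60, adjusted p = 0.00036; 0.00036 to 0.35 over 23 alternatives), and with windows of 5 kb neither the averaged nor the DMSO contrast did (log2 −1.41 and −1.44).

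The region with the most coverage lay 9.73 kb upstream of the gene (1707 bp, chr1:192147026-192148732, in no annotated gene). The region is listed at 0 in the 6 knockout libraries and was covered over 1554, 0 and 908 bp in scramble cells with dexamethasone and 1523, 1707 and 1530 bp with DMSO. Presence in at least 5 scramble and 0 knockout libraries was found at 3.79% of all regions. It became a consensus region, and passed the filter of 3 libraries, through the scramble libraries alone, so a difference in this direction was favoured by how it was kept. It was called in the averaged knockout contrast (log2 −1.60 ± 0.29, limma adjusted p = 0.0037) and under DMSO (log2 −2.01 ± 0.41, adjusted p = 0.011). The authors' −log10 q of these peaks was 1.41 to 2.77. It was the only one of 35 regions called in these contrasts, against 15.3% of all regions in the averaged contrast and 8.68% under DMSO. Under dexamethasone 0 of 35 were called, against 9.97% of all regions called. There 4 of 35 had an unadjusted p under 0.05. How many of all regions had such a p was not counted, so nothing is read from this number.

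The promoter of RGS18 (GRCh38.p14, chr1:192158212-192158511, plus strand, from RefSeq) is shown because peaks over it were found in scramble libraries alone, 3 of 6; capitals mark 2 matches to TTGCNNAA, a pattern bound by C/EBP factors, 130 bases upstream of the start and, on the opposite strand, 63 bases upstream.
RGS18: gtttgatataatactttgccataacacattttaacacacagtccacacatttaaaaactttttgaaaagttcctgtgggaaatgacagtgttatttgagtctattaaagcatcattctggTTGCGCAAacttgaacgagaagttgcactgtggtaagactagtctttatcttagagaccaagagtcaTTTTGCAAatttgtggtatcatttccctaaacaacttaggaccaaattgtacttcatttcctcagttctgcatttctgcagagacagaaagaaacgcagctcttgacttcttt
At least 1 match to this pattern on either strand was present in 10.5% of all promoters. Of the other 5 genes, 0 had one in the promoter at their annotated starts. A match is a description of the letters, and binding was not measured. Peaks over the RGS18 start spanned 928, 0 and 1197 bp in scramble cells with dexamethasone and 1136, 0 and 0 bp with DMSO, and the knockout difference there did not pass (log2 −0.81 ± 0.35, limma adjusted p = 0.18). This region too was kept through the scramble libraries alone, which favoured a difference in this direction.

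Near the other 5 genes 0 regions passed in limma for the averaged knockout contrast, where 15.3% of all regions were called. Of the regions near these genes 3 had an unadjusted p under 0.05. The number of all regions with such a p was not counted, so nothing is read from this count. The 4 with the smallest p were the region 51.2 kb upstream of RGS1 (log2 0.71 ± 0.26, limma adjusted p = 0.11), one 9.90 kb downstream of the CXCR4 start (0.44 ± 0.19, adjusted p = 0.18), one 98.5 kb upstream of RGS1 (0.83 ± 0.36, adjusted p = 0.18) and one 82.3 kb downstream of RGS2 (0.42 ± 0.19, adjusted p = 0.19). The CXCR4 and RGS2 regions were covered in 3 knockout and 0 scramble libraries each. Both became consensus regions, and passed the filter of 3 libraries, through the knockout libraries alone. A difference in this direction was thus favoured by how they were kept.

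The wider set of genes around this pathway was counted from lists of names, over all 18928 windows. With dexamethasone, averaged over the genotypes, 0 of 10 R4 family genes, 0 of 13 other RGS genes, 0 of 21 G protein subunits, kinases and arrestins, and 0 of 12 trafficking receptors and ligands were called by limma, with 2, 2, 1 and 1 at an unadjusted p under 0.05. Over all 18928 windows 0.19% were called and 1873 had such a p. The 2 of the R4 family were RGS1 and RGS13, which belong to the 6 genes and share regions. The lists were chosen with earlier results known, so nothing is read from these counts. The smallest limma p in these lists belonged to RGS1 and RGS13, to RGS12 (log2 −0.31, adjusted p = 0.14) and RGS7 (0.42, adjusted p = 0.26), to GNA12 (−0.19, adjusted p = 0.41) and PLCB2 (−0.13, adjusted p = 0.55), and to CD44 (−0.69, adjusted p = 0.23) and S1PR5 (0.19, adjusted p = 0.53); none passed. Of 23 chemokine receptor genes, which form 14 separate loci, the 1 call was CXCR4 itself, which its choice fixed; 20 were higher and 3 lower with a median log2 of 0.12, where the median of all windows was 0.01 and 53.3% were higher.

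With the knockout, averaged over the treatments, 12.9% of all windows were called higher and 11.9% lower, 24.8% in all. Of the 21 G protein, kinase and arrestin genes 2 were called higher and 4 lower, which is near that share. GNG2, a G protein gamma subunit, had 1.33 ± 0.27 kb in knockout and 7.14 ± 2.45 kb in scramble cells with dexamethasone, and 1.62 ± 0.33 kb in knockout and 9.35 ± 1.59 kb in scramble cells with DMSO (log2 −2.16 ± 0.12 SE, limma adjusted p = 1.1e-08). GRK3, a kinase that phosphorylates activated receptors (log2 −0.88), GNAI2, an inhibitory alpha subunit (−0.38), and GRK6 (−0.27) were lower. GNG5 (0.55) and GNAI1, another inhibitory alpha subunit (0.47), were higher.

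Of 12 trafficking receptors and ligands 3 were called higher and 4 lower in the knockout, against the same 24.8% of all windows. CD44, an adhesion receptor, is listed at 0 in the 6 scramble libraries and averaged 0.591 ± 0.29 kb with dexamethasone and 2.56 ± 0.99 kb with DMSO in knockout cells, through which alone it passed the filter of 3 libraries. ITGA4 (log2 0.52) and S1PR3 (0.97) were also higher, while S1PR1, a receptor that draws lymphocytes out of tissue (−0.89), CXCL12, the ligand of CXCR4 (−0.29), P2RY8 (−0.30) and ITGB1 (−0.39) were lower.

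Of 23 chemokine receptors 1 was called higher and 4 lower in the knockout, near the 24.8% of all windows. These genes form 14 separate loci, so calls of genes whose windows overlap are not independent. CCR6 averaged 8.79 ± 0.38 kb in knockout and 4.82 ± 1.81 kb in scramble cells with dexamethasone, and 8.94 ± 0.48 kb in knockout and 4.08 ± 1.31 kb in scramble cells with DMSO (log2 0.90, limma adjusted p = 0.00049). XCR1 (−0.40), CXCR1 (−0.32), ACKR2 (−0.45) and CXCR2 (−0.29) were lower. Of 13 other RGS genes 2 were higher, RGS22 (0.67) and RGS20 (0.53), and 4 lower, RGS10 (−0.43), RGS19 (−0.42), RGS7 (−0.39) and RGS12 (−0.21), and in the R4 family 1 of 10, RGS18, was called, against the same 24.8%.

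Some cell type markers were called in the averaged knockout contrast too, where 24.8% of all windows were called. These calls are therefore no result about the markers. Among T cell markers, CD2 is listed at 0 in the 6 scramble libraries. It averaged 3.59 ± 0.59 kb with dexamethasone and 2.59 ± 0.93 kb with DMSO in knockout cells, through which alone it passed the filter of libraries covered. CD3E was lower (log2 −0.45), so that 2 of 5 were called. Of 5 myeloid markers CD14 was lower (−0.35), of 5 mature B cell markers MS4A1 was higher (0.72), and of 10 plasma cell and myeloma markers SLAMF7 was higher (0.65). Summed coverage of the T cell markers ranged over 42.3 to 50.2 kb in knockout and 40.2 to 49.8 kb in scramble libraries, that of the myeloid markers over 63.5 to 76.6 and 62.1 to 75.7 kb, and that of the mature B cell markers over 41.9 to 52.2 and 42.6 to 54.5 kb, in the same order of genotypes, and 0 of the markers were at 0 in every library. The part of other cells in the knockout differences was not tested.

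By the correlation of covered length over the 12 libraries, a description that includes the groups and shared library effects, the windows most like CXCR4 included those of LHFPL5 (Pearson r = 0.91) and VMAC (0.90), on other chromosomes. For RGS1 they were CTC1, SYCP2 and TENT2 (0.90 to 0.91), and for RGS18 SYNPR, GIMAP5 and INPP4B (0.93 to 0.94). RGS2 was most like BIRC6, NFAT5 and METTL18 (0.91 to 0.92), RGS13 like UTP20, OFD1 and LDLRAD3 (0.86 to 0.89) and RGS16 like NAT8L, ANGEL1 and IQANK1 (0.81 to 0.84). Among the 6 genes the windows most alike were those of CXCR4 and RGS1 (0.70), on different chromosomes, and those of RGS1 and RGS13 (0.67), which share regions. The 100 kb limit cut through the neighbourhood of some genes. The outermost region inside it lay 88.3 kb from CXCR4 and the next one outside 120.1 kb away, while for RGS1 these were at 98.5 and 108.3 kb. For RGS18 they were at 20.2 and 175.0 kb and for RGS16 at 38.2 and 156.9 kb.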

How the data were processed

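H3K27ac CUT&RUN was done on 100000 cells per assay, per the labels' protocols. The deposited peak lists are in MACS broadPeak format; the submitters' processing notes name Bowtie2 2.4.2, MACS3 3.0 and hg38. Each deposited list gives, per peak, its position, a score, a fold enrichment, and −log10 p and −log10 q values, all computed by the authors' peak caller. Lists were made per library, and the use of a control library is not given in the sources used here. The depth is unknown and no counting interval can be given.

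The covered base pairs of each gene span with 100 kb on either side were computed for 19974 protein-coding RefSeq genes. The 18928 windows covered in at least 3 of 12 libraries were put on a log2(base pairs + 500) scale, quantile normalised and fitted with limma 3.58.1 (R 4.3.3; trend and robust options, 4 group means, 8 residual degrees of freedom), with Benjamini-Hochberg adjustment over all windows and a threshold of 0.05. Regions covered in at least 2 libraries over at least 200 bp formed 71123 consensus regions, and 59550 covered in at least 3 libraries were tested in the same way after scaling to the mean library total. The other steps used Python 3.11.15. The scripts were tested on simulated data.

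The 6 genes and the gene lists were chosen with earlier results of these data known. Named regions were those called in any contrast, those over the start or with the most coverage, and those of smallest p in the averaged contrasts, and genes of the lists those called or, where none was, those with the smallest p. A planned permutation test of the 6 windows pooled was not run, since members chosen on such values allow no p. Alternatives covered window size, offset, normalization, peak strength, filters, the fit, the replicate block and each library left out. Promoter sequences come from RefSeq (GRCh38.p14); region sequences were not used here. One window named by the likeness rule and 1 neighbouring gene are not reported here.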

Additional observations from a re-analysis of the deposited data

How the results depend on the processing

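Of the 6 genes, 0 were called in the averaged dexamethasone contrast with windows of 25 kb, where 7 of 17155 windows were. With only peaks of −log10 q of at least 2, 0 were called, against 72 of 18418 windows. In the averaged knockout contrast and under DMSO, 0 were called with windows of 5 kb, against 1849 and 947 of 15743 windows. With only those peaks 0 were called in both, against 5248 and 2748 of 18418 windows. With single libraries left out, 1 to 2 genes were called in the averaged dexamethasone contrast, against 11 to 42 of all windows. RGS1 joined CXCR4 without knockout DMSO library 1 or scramble DMSO library 1, and nothing is read from this. In knockout cells alone 0 to 1 were called for dexamethasone, against 5 to 16. For the knockout 1 to 2 were called averaged over treatments, against 4115 to 4665, and 0 to 1 under dexamethasone, against 1788 to 2766. These fits held 18869 to 18914 windows. RGS1 joined RGS18 in the averaged knockout contrast without knockout DMSO library 3 (log2 0.38). The difference of drug responses at CXCR4 turned to log2 −0.13 with windows of 5 kb and −0.10 at equal covered length, and ranged over −0.068 to 0.22 with single libraries left out, with −0.038 without knockout DMSO library 1. Of the 35 regions, 1 was called for the knockout under dexamethasone with no normalization (over the RGS16 start), against 6086 of 59550 regions. With only strong peaks 0 were called in the averaged knockout contrast and 0 under DMSO, against 6811 and 4000 of 35370. With single libraries left out, 2 to 4 regions were called for dexamethasone averaged, against 150 to 264 of all regions. In knockout cells 0 to 4 were called, against 67 to 331. For the knockout 1 to 3 were called averaged, against 8247 to 8834, and 0 to 2 under dexamethasone, against 4765 to 5973. These fits held 56910 to 58524 regions. Replicate numbers did not pair the libraries, whose same-number correlations ran from −0.10 to 0.10. With a replicate block 2 regions were called for dexamethasone averaged, where 89 were over all regions against 338 without the block. In scramble cells 1 was called, against 207 over all regions, and in knockout cells 0, against 31. The causes were not tested. RGS18 and its upstream region gave no value with only strong peaks, as too few libraries were then covered. The lists give no read counts, so the precision of a single peak is unknown.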
